A study of Mus musculus with 10 samples.

Results

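The genes described here are the corticosteroid receptors, the enzyme that feeds them and a panel of their induced target genes, 10 of the 37882 genes in the deposited table. They were taken by symbol: Nr3c1, Nr3c2, Hsd11b1, Fkbp5, Tsc22d3, Sgk1, Zbtb16, Klf9, Mt1 and Mt2, and each symbol matched 1 row. Of the 10, 8 had enough counts to be tested, while Nr3c2 and Zbtb16 did not and are given as counts. The tumours were orthotopic mammary tumours of the mouse mammary cancer line MCa-M3C in FVB/N hosts, and RNA was read from 10 of them. The TMA-ARB group (n = 5, replicates 6 to 10) received valsartan at 40 mg/kg in its TMA-ARB form, an angiotensin receptor blocker in a form activated in the tumour microenvironment, once a day into the blood for 6 days. The PBS control group (n = 5, replicates 1 to 5) received the same volume of PBS on that schedule, and both groups started at a tumour volume of about 100 mm3. All 10 tumours came from a single cell line. The labels do not state that every library is its own mouse, and tests here reflect variation among libraries, part of which may be technical. The comparison addressed here is whether levels of corticosteroid receptor and target RNAs differed between treated and control tumours.

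Glucocorticoids enter cells and bind the glucocorticoid receptor, which sits in the cytoplasm with heat shock protein chaperones, moves to the nucleus and activates genes that carry glucocorticoid response elements. The mineralocorticoid receptor binds aldosterone and also glucocorticoids, and in sodium-transporting epithelia it controls sodium transport genes. In many tissues Hsd11b1 regenerates active corticosterone from its inert form, so the hormone that a cell sees depends on local enzyme as well as on the adrenal gland. Angiotensin II drives aldosterone release in the adrenal cortex, which links the drug target to this receptor family.

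Library totals ran from 12742953 to 15468825 counts under TMA-ARB and from 14266136 to 16884621 in PBS controls. The mitochondrial share, the percentage of counts on genes of the mitochondrial genome, varied widely and was 10.5% ± 9.12 under TMA-ARB and 4.19% ± 2.21 in controls (SD, n = 5 each; two-sided exact permutation p = 0.143). It was above 5% in TMA-ARB replicates 8, 9 and 10 and control replicates 3 and 4. Among markers of the cells a mammary tumour can hold, the 8 fibroblast genes summed to between 5099 and 5842 CPM (counts scaled to library size) under TMA-ARB and between 4927 and 6220 CPM in controls. The 7 epithelial genes summed to between 106 and 239.8 CPM under TMA-ARB and between 84.5 and 159.6 CPM in controls, and Krt18, a keratin gene, averaged 131 ± 51.3 CPM under TMA-ARB and 101 ± 30.4 CPM in controls. In whole tumours fewer cells of a type and less RNA per cell cannot be told apart. Of 6 tested epithelial genes 5 had positive values and 0 passed. An unadjusted p under 0.05 was found in 2, beside 3.25% of all genes. These were Krt8 (log2 fold change 1.23 ± 0.42, SE, edgeR unadjusted p = 0.0122, edgeR adjusted p = 0.997) and Krt14 (2.02 ± 0.87, SE, edgeR unadjusted p = 0.0357, edgeR adjusted p = 0.997). As to immune cells, 6 of 6 T cell, 5 of 5 neutrophil and 3 of 5 macrophage genes were negative, beside 47.2% of all genes. Of these lists 0 genes passed. The T cell genes were low, with group means from 0.633 CPM (Cd3e under TMA-ARB) to 3.38 CPM (Cd3g in controls). Of the other defining epithelial markers, Epcam averaged 3.31 ± 4.95 CPM under TMA-ARB and 1.96 ± 0.99 CPM in controls, and Cdh1 5.64 ± 4.70 CPM under TMA-ARB and 7.04 ± 2.54 CPM in controls (SD, n = 5 each).

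None of the 8 tested genes passed: 0 of 8 reached an edgeR adjusted p under 0.05, beside 0% of all 14063 genes tested. At an unadjusted p under 0.05 there were also 0 of 8, beside 3.25% of all genes (1.59% higher and 1.66% lower under TMA-ARB), and DESeq2 and limma-voom called 0 of the 8 as well. A p that misses the threshold does not show equal levels, and the intervals given below bound each difference. The groups overlapped in all 8, while TMA-ARB lay wholly above controls in 0.164% of all genes and wholly below in 0.363%. Log2 fold changes, TMA-ARB over control, ran from -0.42 (Mt2) to 0.74 (Klf9) with a median of -0.19, beside 0.02 over all genes. Of the 8 values 6 were negative, beside 47.2% of all genes.

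**Figure D1:**
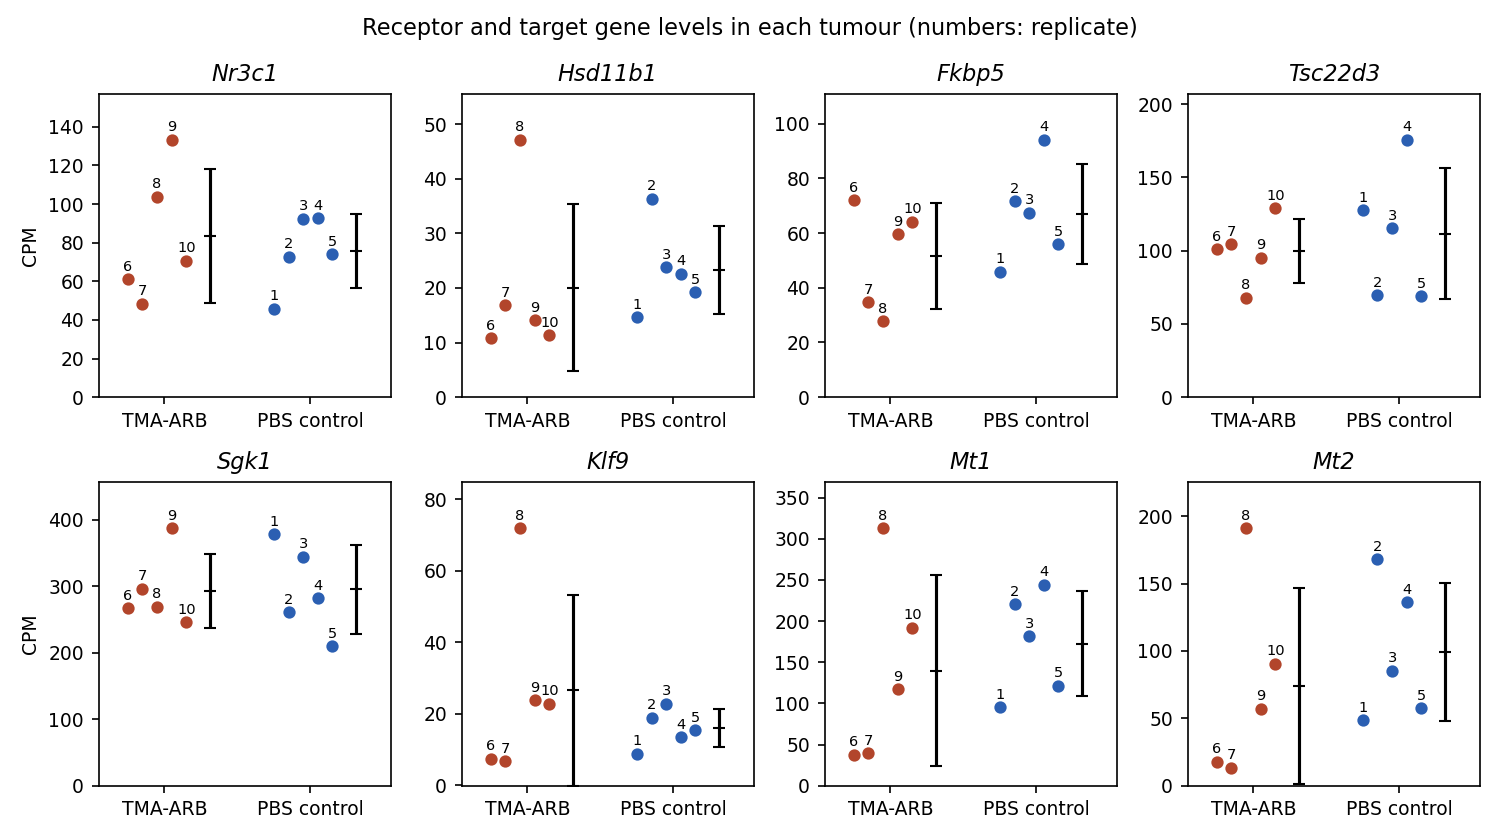
CPM of the 8 tested genes in each tumour, with TMA-ARB (red) left of PBS control (blue); small numbers are replicates and black bars are the mean ± SD of 5 libraries. The groups overlap in every panel, and TMA-ARB replicate 8 is the highest point for Hsd11b1, Klf9, Mt1 and Mt2 and the lowest for Fkbp5 and Tsc22d3.

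Set on a per-length scale, CPM per kilobase of annotated exon, the metallothioneins stood highest and the mineralocorticoid receptor and Zbtb16 at the bottom. Mean levels per kilobase were 126 ± 124 under TMA-ARB and 169 ± 87.5 in controls for Mt2, and 112 ± 93.0 under TMA-ARB and 139 ± 50.8 in controls for Mt1 (SD, n = 5 each). Sgk1 followed at 59.8 ± 11.3 under TMA-ARB and 60.2 ± 13.6 in controls. Tsc22d3 was at 22.9 ± 5.03 under TMA-ARB and 25.7 ± 10.3 in controls, and Nr3c1 at 10.9 ± 4.50 under TMA-ARB and 9.83 ± 2.50 in controls. Fkbp5, Hsd11b1 and Klf9 lay close together, with group means from 3.30 to 7.08 per kilobase. Across the 10 tumours Sgk1 (42.8 or more) did not overlap Tsc22d3 (40.5 or less), and none of the 8 overlapped Nr3c2 or Zbtb16, which stayed at or under 0.0688. All other neighbours in this order overlapped in their ranges across tumours. Overlap of ranges does not settle their order within a tumour, which was not compared here.

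Nr3c1, on chromosome 18, encodes the glucocorticoid receptor and was expressed in every tumour. It measured 61.0, 48.4, 104, 133 and 70.7 CPM in TMA-ARB replicates 6 to 10, against 45.8, 72.7, 92.4, 92.7 and 73.9 CPM in control replicates 1 to 5. The highest tumours, TMA-ARB replicates 9 and 8, exceeded every control, while 3 of the 5 TMA-ARB tumours lay within the control range. The log2 fold change was 0.14 ± 0.27 (SE; 95% interval -0.45 to 0.73; edgeR adjusted p = 0.997), and without TMA-ARB replicate 9 it was -0.08. Its interval therefore runs from a 0.733-fold to a 1.66-fold level under TMA-ARB.

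Nr3c2, the mineralocorticoid receptor gene (chromosome 8, 76899442 to 77245012), held 24 counts in all 10 libraries. It had 5, 2, 2, 0 and 0 counts in TMA-ARB replicates 6 to 10, against 0, 5, 0, 4 and 6 counts in control replicates 1 to 5. These are 0 to 6 counts per library and no fold is given; a library with no count allows up to 3 counts, or 0.196 to 0.307 CPM in these 4 libraries, for counting error only. Hsd11b2, which inactivates glucocorticoids and thereby shields the mineralocorticoid receptor in kidney, was also near the floor with 8 counts in all.

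Hsd11b1 (chromosome 1, 193221634 to 193264075) was present in every tumour and differed most in a single library. It measured 10.8, 16.9, 47.1, 14.1 and 11.4 CPM in TMA-ARB replicates 6 to 10, against 14.7, 36.4, 23.8, 22.6 and 19.3 CPM in control replicates 1 to 5. TMA-ARB replicates 6, 9 and 10 were below every control, replicate 7 was inside the control range and replicate 8 was above every control. The log2 fold change was -0.22 ± 0.40 (SE; 95% interval -1.08 to 0.64; edgeR adjusted p = 0.997), -0.81 without TMA-ARB replicate 8 and -0.0023 without control replicate 2. Adipocytes and fibroblasts are known sources of this enzyme. With the mean log2 CPM of the 3 tested adipocyte markers (Plin4, Fabp4 and Pparg) as a covariate, the log2 fold change was -0.013 ± 0.43 (SE). Of these markers, Plin4 averaged 0.718 CPM under TMA-ARB and 0.780 CPM in controls. Pparg averaged 0.471 CPM under TMA-ARB and 0.880 CPM in controls. With markers this low the covariate is a poor measure of adipocytes, and the parts of adipocytes and of fibroblasts in the Hsd11b1 level were not tested. The 9 adipocyte genes summed to between 38.2 and 58.9 CPM under TMA-ARB and between 42.7 and 62.2 CPM in controls. Of this Fabp4, which other cells also express, averaged 44.97 ± 8.94 CPM under TMA-ARB and 50.1 ± 7.57 CPM in controls, while the defining marker Adipoq averaged 0.113 ± 0.156 CPM under TMA-ARB and had 0 CPM in controls. H6pd, which supplies the cofactor for this reductase, averaged 35.4 ± 4.56 CPM under TMA-ARB and 39.5 ± 6.80 CPM in controls (SD, n = 5 each).

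Fkbp5 (chromosome 17, 28399094 to 28517527) encodes a co-chaperone that lowers the hormone affinity of the receptor, and its induction is a standard sign of receptor activity. It measured 72.1, 34.8, 27.8, 59.6 and 64.2 CPM in TMA-ARB replicates 6 to 10, against 45.9, 71.7, 67.5, 94.1 and 55.9 CPM in control replicates 1 to 5. TMA-ARB replicates 7 and 8 were below every control, and the other 3 treated tumours were inside the control range. Its log2 fold change of -0.37 ± 0.27 had the smallest p of the 8 genes (SE; 95% interval -0.96 to 0.21; unadjusted p = 0.189, edgeR adjusted p = 0.997). The value was negative under each of the 21 other settings tried, between -0.69 and -0.11, and never passed.

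Tsc22d3 (chromosome X, 140539528 to 140600659) encodes GILZ, a leucine zipper protein that carries part of the anti-inflammatory action of glucocorticoids. It measured 101, 104, 68.0, 95.3 and 129 CPM in TMA-ARB replicates 6 to 10, against 128, 69.6, 116, 176 and 68.9 CPM in control replicates 1 to 5. Treated tumours sat inside the control range except replicate 8, which was just under it, and controls had the wider spread. The log2 fold change was -0.16 ± 0.26 (SE; 95% interval -0.73 to 0.40; edgeR adjusted p = 0.997), and 0.07 without control replicate 4.

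Sgk1 (chromosome 10, 21882184 to 21999903) encodes a kinase induced by both receptors that keeps the epithelial sodium channel at the cell surface. It was the steadiest of the 8 genes, at 267, 296, 269, 387 and 246 CPM in TMA-ARB replicates 6 to 10 and 378, 261, 344, 282 and 209.8 CPM in control replicates 1 to 5. TMA-ARB replicate 9 was above every control and the other 4 treated tumours were inside the control range. Means were 293 ± 55.5 CPM under TMA-ARB and 295 ± 66.9 CPM in controls (SD, n = 5 each). The log2 fold change was -0.01 ± 0.20 with a 95% interval of -0.44 to 0.42 (SE; edgeR adjusted p = 0.997), so a level of 0.736-fold to 1.34-fold is inside the interval, and its sign turned under 7 of the 21 other settings.

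Sgk1 is shown by sequence because 1 of its 6 RefSeq start sites carries the full glucocorticoid response palindrome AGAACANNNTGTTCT within 250 bases upstream. That palindrome occurs in 3 of 32851 RefSeq promoter windows of this length (0.00913%), those of Sgk1, Acnat2 and Gm35041, counting either strand. The window is chr10:21993640-21993889 (GRCm38.p6, plus strand), and the palindrome within it spans 21993701 to 21993715, 965 bases before the most downstream Sgk1 start. Capitals mark the palindrome and a separate match to its repeated 6-base element AGAACA, on the opposite strand:
Sgk1: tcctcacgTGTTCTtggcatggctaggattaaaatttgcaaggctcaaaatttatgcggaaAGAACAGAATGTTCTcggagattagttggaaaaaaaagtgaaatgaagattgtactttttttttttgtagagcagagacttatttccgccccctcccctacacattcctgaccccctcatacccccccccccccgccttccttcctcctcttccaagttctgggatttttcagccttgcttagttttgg
That short element alone is common, present in 16.1% of windows on either strand. In the windows of Fkbp5, Hsd11b1, Klf9, Nr3c2, Mt1 and Mt2 it did not occur, which says nothing on elements elsewhere in those genes. Tsc22d3 had 1 match, in only 1 of its windows. The table of windows held entries for 8 of the 10 genes, without Nr3c1 and Zbtb16.

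Klf9 (chromosome 19, 23141226 to 23168134) encodes a zinc finger transcription factor induced by glucocorticoids and thyroid hormone. Its levels were 7.45, 6.71, 71.9, 23.8 and 22.8 CPM in TMA-ARB replicates 6 to 10, against 8.87, 18.9, 22.9, 13.5 and 15.3 CPM in control replicates 1 to 5. Treated tumours fell on both sides of the controls: replicates 6 and 7 were below every control, replicates 8 and 9 above every control. The log2 fold change of 0.74 ± 0.58 was the largest in size among the 8 and did not pass (SE; 95% interval -0.55 to 2.02; edgeR adjusted p = 0.997), and without TMA-ARB replicate 8 it was -0.07.

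Zbtb16 (chromosome 9, 48654297 to 48836222) encodes PLZF, a transcription factor strongly induced by glucocorticoids in several human tissues. It had 6, 0, 0, 0 and 5 counts in TMA-ARB replicates 6 to 10, against 0, 0, 1, 0 and 0 counts in control replicates 1 to 5. With 12 counts in all it was too low to test, and 7 of the 10 libraries held none.

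The metallothionein genes Mt1 (chromosome 8, 94179082 to 94180327) and Mt2 (chromosome 8, 94172664 to 94173568) encode small cysteine-rich proteins that bind zinc and copper, and they are induced by metals, oxidative stress and glucocorticoids. Their gene starts lie 6418 bases apart. The coding sequences are printed because the genes gave nearly the same pattern across tumours, so it matters whether reads can tell them apart; capitals mark the bases at which they differ (GENCODE release 21 transcripts, GRCm38):
Mt1: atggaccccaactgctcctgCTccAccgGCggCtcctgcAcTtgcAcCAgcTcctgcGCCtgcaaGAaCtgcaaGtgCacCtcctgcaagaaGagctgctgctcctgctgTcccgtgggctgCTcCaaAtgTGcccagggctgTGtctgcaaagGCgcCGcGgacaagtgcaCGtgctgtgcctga
Mt2: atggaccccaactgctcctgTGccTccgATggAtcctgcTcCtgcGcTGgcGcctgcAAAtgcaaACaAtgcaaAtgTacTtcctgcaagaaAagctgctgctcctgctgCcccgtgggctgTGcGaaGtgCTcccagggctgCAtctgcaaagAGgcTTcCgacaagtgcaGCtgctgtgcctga
The coding sequences are 186 bases each and differ at 38 bases (79.6% identical), with a longest identical run of 20 bases, and the annotated transcripts share 0 stretches of 31 bases.

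Mt1 measured 37.5, 39.1, 313, 118 and 192 CPM in TMA-ARB replicates 6 to 10, against 95.7, 221, 181.5, 244 and 122 CPM in control replicates 1 to 5. Mt2 measured 17.7, 13.3, 191, 57.2 and 90.5 CPM in TMA-ARB replicates 6 to 10, against 48.7, 168, 85.3, 136 and 57.4 CPM in control replicates 1 to 5. In both genes TMA-ARB replicates 6 and 7 were under every control and TMA-ARB replicate 8 was above every control, so the treated group spanned an 8.33-fold range for Mt1 and a 14.4-fold range for Mt2. Log2 fold changes were -0.31 ± 0.56 for Mt1 (SE; 95% interval -1.53 to 0.92) and -0.42 ± 0.69 for Mt2 (SE; -1.97 to 1.12), each with an edgeR adjusted p of 0.997. With 1 library left out, the log2 fold change of Mt1 was lowest at -0.84 when TMA-ARB replicate 8 was dropped and highest at -0.06 when TMA-ARB replicate 6 was. For Mt2 it was lowest at -1.15, again when TMA-ARB replicate 8 was dropped, and highest at -0.15 when control replicate 2 was. The 5 macrophage genes in the table divided the treated tumours at the same place as the metallothioneins, Klf9 and the mitochondrial share: they summed to 1179.6 and 1081 CPM in TMA-ARB replicates 6 and 7, above every control, and to 382, 237 and 421 CPM in TMA-ARB replicates 8, 9 and 10, below every control (648 to 1054 CPM). The 6 endothelial genes summed to 263 and 270.1 CPM in TMA-ARB replicates 6 and 7 and to 174, 173 and 181 CPM in TMA-ARB replicates 8, 9 and 10, against 213 to 361 CPM in controls. Skeletal muscle genes summed to 279 and 111 CPM in replicates 6 and 7 and to 54.1 to 75.0 CPM in replicates 8, 9 and 10. Fibroblast genes summed to 5842 and 5544 CPM in replicates 6 and 7 and to 5099 to 5469 CPM in replicates 8, 9 and 10. Sums of epithelial, adipocyte, neutrophil and T cell genes did not divide the treated tumours there. The part of any of these cell types in the levels of Mt1, Mt2 and Klf9 was not tested. The ratio of Mt2 to Mt1 CPM was 0.476 ± 0.0961 under TMA-ARB and 0.554 ± 0.121 in controls (SD, n = 5 each), with overlapping ranges.

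**Figure D2:**
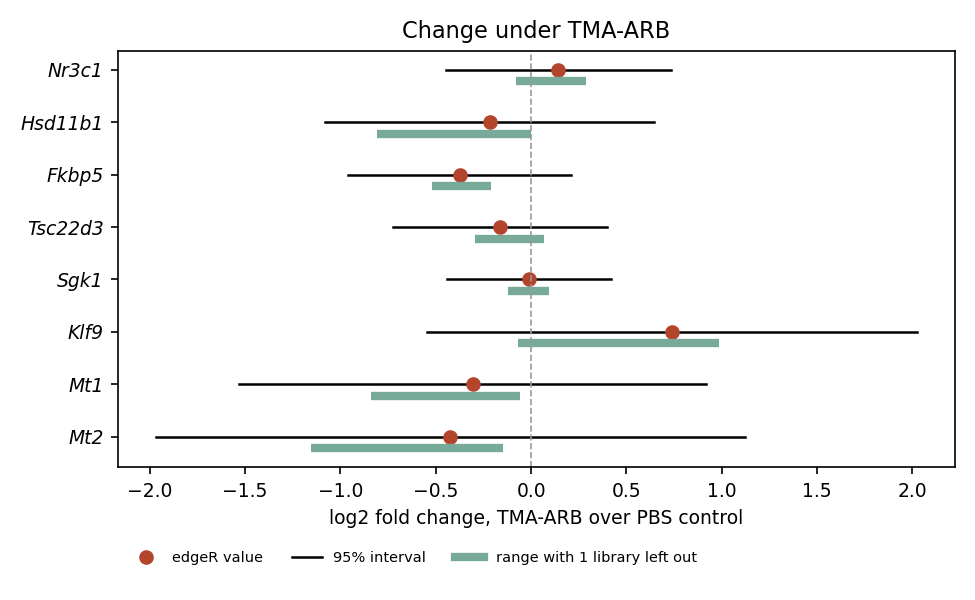
Log2 fold changes of the 8 tested genes, TMA-ARB over PBS control (points, edgeR), with 95% intervals (black) and the range when 1 of the 10 libraries was left out (green). Every interval crosses 0, and the intervals of Klf9, Mt1 and Mt2 are the widest.

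The tested genes differed in how much they varied between tumours of one group. The within-group SD of log2 CPM was 1.26 for Mt2, 1.05 for Klf9 and 1.05 for Mt1, against a median of 0.43 over all 14063 genes, and it was lower than theirs in 93.6%, 89.4% and 89.2% of genes. For Sgk1 it was 0.30, with 23% of genes lower, for Hsd11b1 0.69, and for Nr3c1, Fkbp5 and Tsc22d3 between 0.48 and 0.51. TMA-ARB replicate 8 held the highest level of 4 of the 8 genes (Hsd11b1, Klf9, Mt1 and Mt2) and the lowest of 2 (Fkbp5 and Tsc22d3), while it held the highest level of 11.7% of all genes and the lowest of 11.4%.

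**Figure D3:**
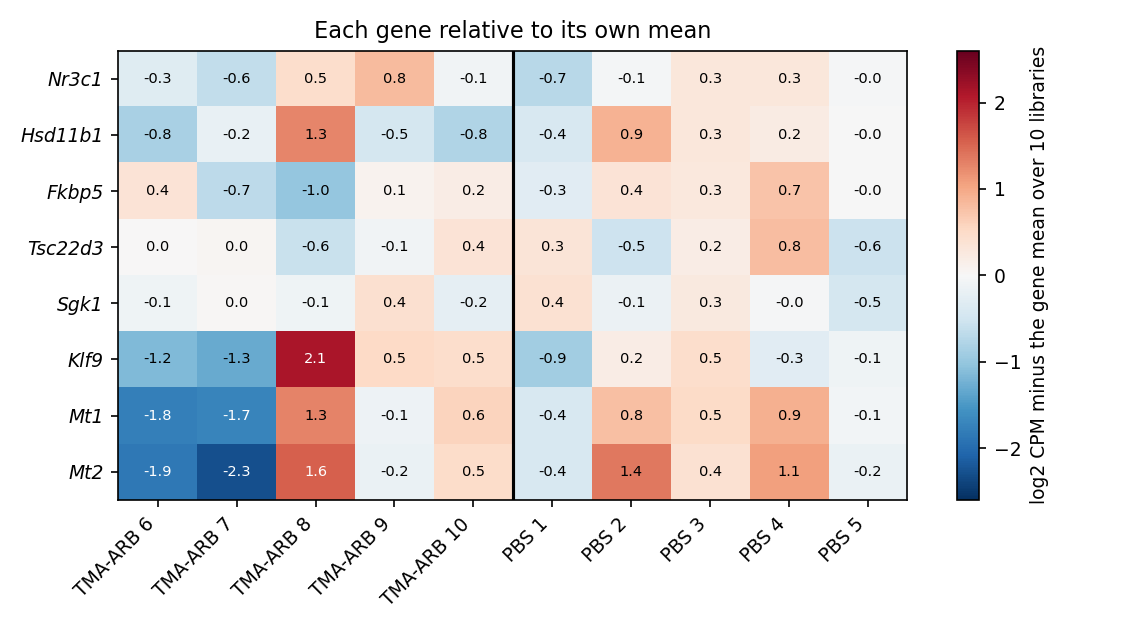
Log2 CPM of each gene minus its mean over the 10 libraries, with TMA-ARB libraries left of PBS controls and the value written in each cell. Mt1, Mt2 and Klf9 are below their means in TMA-ARB 6 and 7 and above them in TMA-ARB 8, where Fkbp5 and Tsc22d3 are lowest.

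The glucocorticoid target genes did not vary as a single block between tumours. Over the 28 pairs of tested genes, Mt1 and Mt2 were tied most closely (Pearson's r = 0.986, permutation p = 1e-05, the smallest that 100000 permutations can give, adjusted 0.00028; Spearman's rho = 0.976, adjusted 0.00028; r = 0.962 without TMA-ARB replicates 6 and 7). Klf9 and Mt1 were the other pair past 0.05 for Pearson's r (r = 0.803, permutation p = 0.00338, adjusted 0.0473) but not for rank order (rho = 0.636, permutation p = 0.0546, adjusted 0.255), with r = 0.704 without TMA-ARB replicates 7 and 8. Fkbp5 and Tsc22d3 had r = 0.451 (permutation p = 0.193, adjusted 0.491) and rho = 0.418 (permutation p = 0.236, adjusted 0.631), and r = 0.321 without TMA-ARB replicates 7 and 8. Between the receptor gene Nr3c1 and Fkbp5 the values were r = 0.177 (permutation p = 0.629, adjusted 0.853) and rho = 0.0909 (permutation p = 0.814, adjusted 0.892), and r = 0.0866 without TMA-ARB replicate 9 and control replicate 1. Nr3c1 and Klf9 had r = 0.738 (permutation p = 0.0146, adjusted 0.102) and rho = 0.782 (permutation p = 0.0111, adjusted 0.155), and r = 0.802 without the same libraries. With Mt1 and Mt2 Nr3c1 had r = 0.604 and 0.579, and with Tsc22d3 and Sgk1 -0.153 and 0.115.

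**Figure D4:**
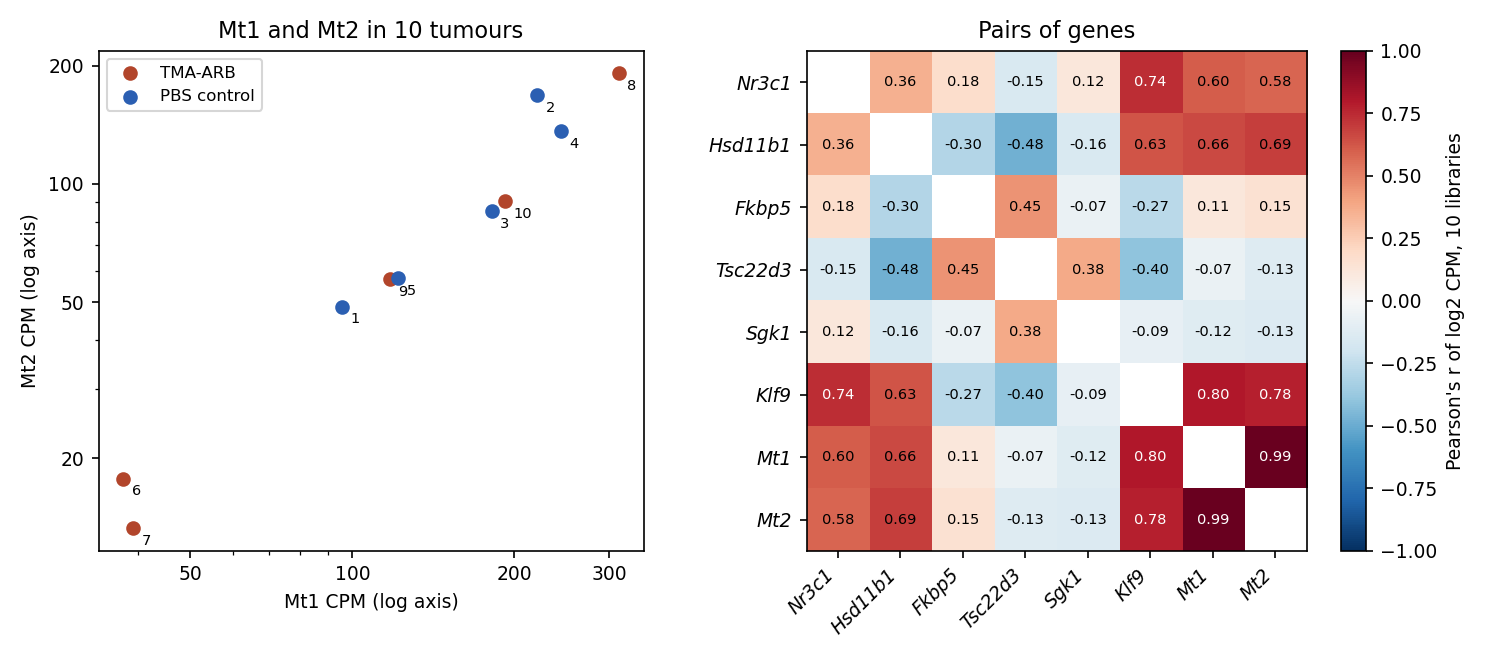
Left, Mt2 against Mt1 CPM in the 10 tumours on log axes; right, Pearson's r of log2 CPM for the 28 pairs of tested genes. The metallothioneins lie on a line (r = 0.986), while Fkbp5 and Tsc22d3 have values near or below 0 with Klf9, Mt1 and Mt2, from -0.40 to 0.15.

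Among all 10859 genes with a mean of at least 5 CPM, the gene most like Mt1 over the 10 libraries was Mt2, and the next were Camk2n1 (r = 0.958) and Igfbp4 (r = 0.957). For Nr3c1 the closest were Leo1 (r = 0.974), Camk2g (r = 0.973) and Smad1 (r = 0.969). For Hsd11b1 they were Aig1 (r = 0.962), Ptprk (r = 0.939) and Stard5 (r = 0.918), and for Klf9 1810013L24Rik (r = 0.966), Birc3 (r = 0.965) and Yap1 (r = 0.962). These values were chosen as the highest of many and are a description of 10 shared libraries.

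Levels of Nr3c1 moved with the mitochondrial share of the library. Over the 8 tested genes, log2 CPM of Nr3c1 against the log2 share gave r = 0.802 (permutation p = 0.00554, adjusted 0.0443) and rho = 0.697 (permutation p = 0.0302, adjusted 0.196), with r = 0.81 without TMA-ARB replicates 9 and 10. An r at least this high was found in 6.65% of all genes. Klf9 had r = 0.649 (permutation p = 0.0392, adjusted 0.157) and rho = 0.648 (permutation p = 0.049, adjusted 0.196), with r = 0.74 without the same libraries, and the other 6 genes had adjusted values of at least 0.541. With group means removed, r was 0.844 for Nr3c1, 0.660 for Klf9, 0.694 for Mt1 and 0.608 for Mt2. It was between 0.152 and 0.242 for the remaining tested genes, and no p was computed for r of this kind. With the log2 share as a covariate, the log2 fold changes were -0.26 for Nr3c1, -0.14 for Klf9, -1.20 for Mt1 and -1.37 for Mt2, and 0 of the 8 genes passed.

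**Figure D5:**
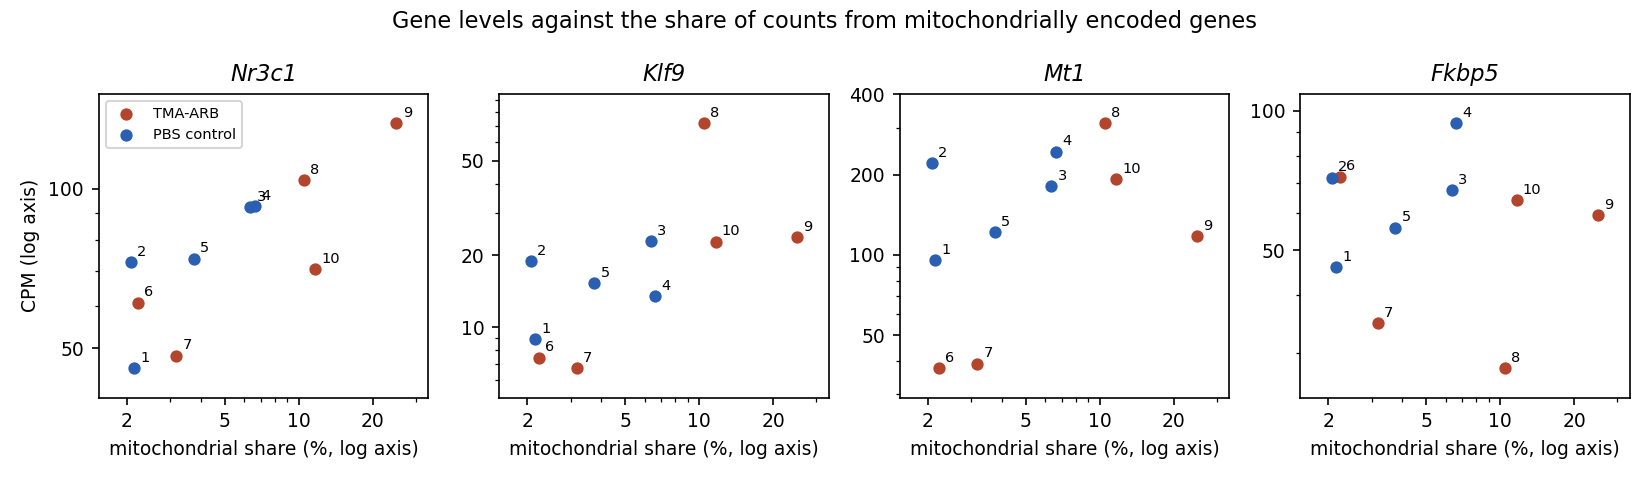
CPM of Nr3c1, Klf9, Mt1 and Fkbp5 against the percentage of counts from mitochondrially encoded genes, both on log axes, in TMA-ARB (red) and PBS control (blue) tumours with replicate numbers. Nr3c1 is higher in libraries with a higher share (r = 0.802). Mt1 is lowest in TMA-ARB 6 and 7, which have low shares, but is at 221 CPM in PBS control 2, which has the lowest share (2.07%). Over all libraries Mt1 has r = 0.441 (permutation p = 0.203, adjusted 0.541), and r = 0.694 with group means removed.

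Values on each side of a 5% mitochondrial share, a split of the libraries added after the data had been seen, differed most for the metallothioneins and Klf9. Below it (TMA-ARB replicates 6 and 7, control replicates 1, 2 and 5) the log2 fold change of Mt1 was -1.93, and above it (TMA-ARB replicates 8, 9 and 10, control replicates 3 and 4) it was -0.04. For Mt2 these values were -2.56 and 0.03, and for Klf9 -1.02 and 1.12. The edgeR interaction, above minus below, was 1.89 ± 0.57 for Mt1 (SE; unadjusted p = 0.00496, edgeR adjusted p = 0.284), 2.59 ± 0.94 for Mt2 (edgeR adjusted p = 0.412) and 2.14 ± 0.71 for Klf9 (edgeR adjusted p = 0.324). None of the 8 genes passed this test, beside 0.0711% of all genes, and 3 of 8 had an unadjusted p under 0.05, beside 10.6% of all genes. The split sets apart TMA-ARB replicates 6 and 7, where these 3 genes were lowest among treated tumours. Their p values therefore describe that pattern and do not test it, and Mt1 and Mt2 are not separate results (r = 0.986). The part of the mitochondrial share in these differences was not tested, and each side holds 2 or 3 libraries a group.

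Of 26 further induced glucocorticoid targets 23 were tested and 0 were called in either direction, with a median log2 fold change of -0.19 beside 0.02 over all genes. The members of highest level per length were Anxa1, an inhibitor of inflammation, at 772 ± 206 CPM under TMA-ARB and 678 ± 103 CPM in controls (SD, n = 5 each), and Cebpb, a transcription factor gene, at 177 ± 82.1 CPM under TMA-ARB and 202 ± 67.0 CPM in controls. Nfkbia, the inhibitor of NF-kappaB, averaged 219.7 ± 92.8 CPM under TMA-ARB and 185 ± 46.7 CPM in controls, and Ddit4, an inhibitor of mTOR signalling, 152 ± 86.1 CPM under TMA-ARB and 212 ± 49.4 CPM in controls. In this list 16 values were negative and 7 positive, beside 47.2% negative over all genes. An unadjusted p under 0.05 was found in 1 of 23, beside 3.25% of all genes. That gene was Zfp36, an mRNA decay factor named after its values were seen (log2 fold change -0.61 ± 0.26, SE, edgeR unadjusted p = 0.0348, edgeR adjusted p = 0.997).

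Inflammatory genes that glucocorticoids repress had 13 of 16 tested, 0 called and a median of -0.02. Mmp13, a collagenase gene, averaged 965 ± 777 CPM under TMA-ARB and 1518 ± 1444 CPM in controls, and Ccl2, a monocyte chemokine gene, 417 ± 134 CPM under TMA-ARB and 339.6 ± 87.2 CPM in controls (SD, n = 5 each). Receptor chaperones had 10 of 10 tested, 0 called and a median of 0.0022, with Hsp90ab1 at 2058 ± 323 CPM under TMA-ARB and 2293 ± 120.1 CPM in controls. Of 12 coregulators 11 were tested, 0 were called and the median was 0.10, with the remodelling ATPase gene Smarca4 at 93.0 ± 27.0 CPM under TMA-ARB and 92.0 ± 17.8 CPM in controls.

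Steroid synthesis and hormone handling genes were mostly at the floor, with 5 of 14 tested and 0 called. Cyp11b1 and Cyp11b2, which make corticosterone and aldosterone in the adrenal cortex, Hsd3b1 and the carrier gene Serpina6 had 0 counts in every library. Among sodium transport genes 10 of 13 were tested, 0 were called and the median was -0.19: Nedd4, a ubiquitin ligase gene, averaged 527 ± 145 CPM under TMA-ARB and 599 ± 136 CPM in controls, while the channel subunit genes Scnn1b and Scnn1g held 2 and 1 counts in all. Metal response genes had 8 of 10 tested, 0 called and a median of 0.05. Hmox1, which degrades haem, averaged 149 ± 127 CPM under TMA-ARB and 206 ± 142 CPM in controls, and Slc39a14, a zinc importer gene, 99.2 ± 19.9 CPM under TMA-ARB and 116 ± 29.3 CPM in controls (SD, n = 5 each).

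Paralogs of the 10 genes had 11 of 14 tested, 0 called and a median of 0.04. Fkbp4, the co-chaperone that opposes Fkbp5 at the receptor, averaged 179 ± 55.1 CPM under TMA-ARB and 182 ± 36.9 CPM in controls (SD, n = 5 each). Fkbp8, a mitochondrial relative, averaged 185 ± 9.39 CPM under TMA-ARB and 222 ± 32.4 CPM in controls. Klf13 averaged 207 ± 247 CPM under TMA-ARB and 139 ± 86.0 CPM in controls. Tsc22d1 averaged 299 ± 79.6 CPM under TMA-ARB and 401 ± 40.5 CPM in controls, a log2 fold change of -0.42 ± 0.20 (SE; edgeR adjusted p = 0.997).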

How the data were processed

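Per the labels' protocols, poly-A RNA was prepared with a NEBNext directional kit, which marks strand. The authors deposited estimated counts per Ensembl gene; Salmon and the mm10 build are named, per the submitters' processing notes, and the Salmon version, annotation and strand setting are not given in the sources used here. Among the values 0 were not whole, and 0 columns lacked a sample. Totals are in the report; reads carried no molecular identifiers in these sources, so floors cover counting error only.

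Genes were tested in edgeR 4.0.16 by its quasi-likelihood test (R 4.3.3; TMM scaling, default expression filter, robust dispersions, Benjamini-Hochberg adjustment at 0.05 over 14063 genes). The standard error was the absolute log2 fold change over the square root of F. CPM uses the TMM-scaled library size and correlations use log2 CPM with a prior count of 2, with two-sided permutation tests. DESeq2 1.42.0, limma-voom (limma 3.58.1), RLE scaling, other filters, covariates and left-out libraries were the alternatives. The steps were tested on simulated data. The 10 genes, the 17 lists and the settings were chosen with earlier results of these data known. All 10 were named, with the closest genes by Pearson's r and the list members of highest CPM per kilobase of exon. Coordinates are from GENCODE mouse release 21 on the mm10 assembly (37607 of 37882 genes matched) and promoter windows from RefSeq, GRCm38.p6. Stretches of 31 bases shared with other genes made up at most 1.75% of any of the 10 genes. A noncoding transcript overlaps Mt2 and another Nr3c2 on the opposite strand. Whether the counts keep each pair apart is unknown, because the strand setting is not given.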

Additional observations from a re-analysis of the deposited data

Results flagged for a closer look

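The gap to the nearest library, over the range on CPM, flagged 2 of the 22 groups of 5 examined, both for the highest TMA-ARB library. Chance flags about 1 in 20 if values are normally spread, which CPM of 5 tumours need not be. The same rule was not applied to log2 CPM. Hsd11b1 was at 47.13 CPM in TMA-ARB replicate 8, and the next highest treated tumour was at 16.9 CPM. Klf9 was at 71.95 CPM in the same library, and the next highest was at 23.8 CPM. That library had a mitochondrial share of 10.5%, and the part of this share in both values was not tested.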

How the results depend on the processing

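No paired analysis was possible because the groups share no replicate numbers. The count of the 10 genes called was 0 under all 21 other settings, and over all genes edgeR called 0 higher and 0 lower except as follows. DESeq2 called 1 gene higher (Amd2) and 1 lower (Hist1h2br), and libraries above a 5% mitochondrial share alone gave 1 higher and 3 lower; this split was added after the data had been seen. Log2 fold changes of opposite sign, the cause of which was not tested, were: Sgk1 at 0.0020 with RLE scaling, 0.021 with limma-voom weights and -0.12 to 0.093 with 1 library left out; Tsc22d3 at 0.096 with limma-voom weights, 0.22 below a 5% share and -0.29 to 0.066 with 1 left out. Nr3c1 was at -0.26 once the log2 mitochondrial share entered the fit, -0.042 with the adipocyte covariate, -0.46 without TMA-ARB replicates 8, 9 and 10, -0.23 below a 5% share and -0.082 to 0.29 with 1 left out. Klf9 was at -0.14 with that share in the fit, -1.17 without TMA-ARB replicates 8, 9 and 10, -1.02 below a 5% share and -0.071 to 0.98 with 1 left out. Above a 5% share Hsd11b1 was at 0.063 and Mt2 at 0.030. Without TMA-ARB replicates 8, 9 and 10, Mt1 was at -2.17 and Mt2 at -2.67 (edgeR adjusted p = 0.160 and 0.186, the lowest of 0.160 to 1 and 0.186 to 1 over their settings). This setting leaves only TMA-ARB replicates 6 and 7, the lowest libraries for both genes, against every control. Its p values therefore describe that pattern and do not test it. Depth limits Nr3c2 and Zbtb16, at 24 and 12 counts.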
